A study of Mus musculus with 20 samples.

Results

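This section covers the interaction between Trem2 genotype and the 5XFAD transgenes in microglia, the macrophages that live in the brain. It asks, for each gene, whether the change that 5XFAD made in mice with Trem2 was also seen in mice without it. All 4 genotype groups entered, with 19 of the 20 arrays: 4 WT, 4 Trem2-/-, 5 5XFAD and 6 Trem2-/-5XFAD. The remaining array carries a WT title but a Trem2-/- genotype and source, and was put in no group. Of 19751 genes on the array, 12728 passed the filter on low values and were tested.

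All mice were littermates aged 8.5 months. WT mice carried neither alteration, Trem2-/- mice lacked Trem2 in all cells, 5XFAD mice carried the 5XFAD transgenes, which are driven in neurons by the Thy1 promoter and lead to amyloid plaques, and Trem2-/-5XFAD mice carried both alterations. Microglia were sorted by FACS after PBS perfusion and enzymatic dissociation of the brain, and labelled cRNA was made from 2 ng of RNA and hybridised to one-colour arrays. Neither the sex of the mice, nor the sorting gate, nor the number of mice per array is stated in the labels.

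TREM2 is a surface receptor of myeloid cells that binds lipids, lipoproteins and amyloid-beta, and signals through the adaptor TYROBP and the kinase SYK. In brains with amyloid plaques, microglia that gather around plaques take on a state known as disease-associated microglia (DAM), in which lipid handling, lysosomal and phagocytic genes rise and homeostatic surface genes fall. Earlier studies of this state divided it into an early step that does not need TREM2 and a later step that does.

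Trem2 itself separated the genotypes. Its log2 intensity was 11.31 ± 0.12 (SD, n = 4) in WT, 11.68 ± 0.14 (n = 5) in 5XFAD, 6.96 ± 0.08 (n = 4) in Trem2-/- and 7.05 ± 0.29 (n = 6) in Trem2-/-5XFAD. The labels and the measured gene therefore matched on each of the 19 arrays. Of the 10 microglial markers set for the check, 9 were on the array (P2ry12, Tmem119, Cx3cr1, Csf1r, Sall1, Fcrls, Siglech, Olfml3 and Sparc), and each lay at or above percentile 94.4 of every array. Array medians ran from 25.7 to 28.6 intensity units.

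Other signals differed between groups and bear on several results. Xist, an RNA made from the inactive X chromosome of female cells, was over 8 on the log2 scale on 3 of 4 WT, 3 of 4 Trem2-/-, 1 of 5 5XFAD and 0 of 6 Trem2-/-5XFAD arrays. The mean of 12 astrocyte markers was 4.93 to 5.07 in WT, 4.78 to 4.94 in Trem2-/-, 5.26 to 5.65 in 5XFAD and 4.96 to 5.22 in Trem2-/-5XFAD. Of the 8 astrocyte markers tested, 2 were called higher and 1, Slc1a3, lower in 5XFAD than in WT, 2 were called higher in Trem2-/-5XFAD than in Trem2-/-, and 1, Gfap, was called in the interaction (2.16 with Trem2, 1.15 without). The mean of 15 border-macrophage markers was 5.64 to 6.47 in WT, 6.04 to 7.10 in Trem2-/-, 5.04 to 5.58 in 5XFAD and 5.93 to 6.52 in Trem2-/-5XFAD, and Stab1 and Maf of that list were called in the interaction. Neutrophil markers reached a mean of 6.27 on array Trem2-/- 1 and 6.43 on array Trem2-/-5XFAD 1, and salivary gland markers were raised on arrays WT 1, WT 2, 5XFAD 1 and 5XFAD 2. The part of these signals in the results was not tested beyond the fits named beside them. Fewer cells of a type and less RNA per cell cannot be told apart in such bulk samples.

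More genes were called for a 5XFAD change in the presence of Trem2 than in its absence. The change with Trem2 (5XFAD minus WT) was called for 1909 genes, 15.0% of those tested, with 1047 higher (8.23%) and 862 lower (6.77%). The change without Trem2 (Trem2-/-5XFAD minus Trem2-/-) was called for 278 genes (2.18%), with 207 higher (1.63%) and 71 lower (0.558%). A gene was called where limma's adjusted p, by Benjamini-Hochberg over all 12728 genes, was under 0.05. The interaction, the change without Trem2 minus the change with it, was called for 331 genes (2.60%): 130 higher (1.02%) and 201 lower (1.58%). After centring every array on its own median, the interaction split was 78 higher and 224 lower, so 25.8% were higher in place of 39.3%. Trem2-/- and WT microglia without the transgenes differed in 78 genes (0.613%), 49 higher and 29 lower. Single arrays moved some of these counts: the 278 fell to 164 without Trem2-/- 1, to 158 without Trem2-/- 3 and to 185 without Trem2-/-5XFAD 4, the 130 fell to 76, 77 and 84 without Trem2-/- 2, Trem2-/- 3 and Trem2-/-5XFAD 5 and to 84 without Trem2-/- 1, and the 78 ran from 30 without Trem2-/- 1 to 159 without WT 2. With the markers of other brain cells as a covariate the 1909 became 1050 and the 278 became 66, and with Xist the 278 became 167. The marker covariate includes Gfap, Flt1 and Pecam1, which were themselves called in 5XFAD. Its drops therefore cannot be read as the part of other brain cells.

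The 2 changes share no arrays, and most of what remained without Trem2 kept its direction. Of the 278 genes called without Trem2, 211 (75.9%) were also called with Trem2, which is 11.1% of the 1909. Of these 211, 209 moved the same way and 2 moved oppositely. Genes called higher with Trem2 had a median log2 change of 0.70 there and 0.23 without Trem2, and genes called lower had medians of -0.59 and -0.18. Over all 1909, 83.3% had the same sign without Trem2. Because these genes were selected on their change with Trem2, that change is overestimated on average. Genes selected instead on being higher without Trem2 had a median of 0.72 there and 1.07 with Trem2, and genes selected on being lower without Trem2 had medians of -0.61 there and -0.60 with Trem2.

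**Figure D1:**
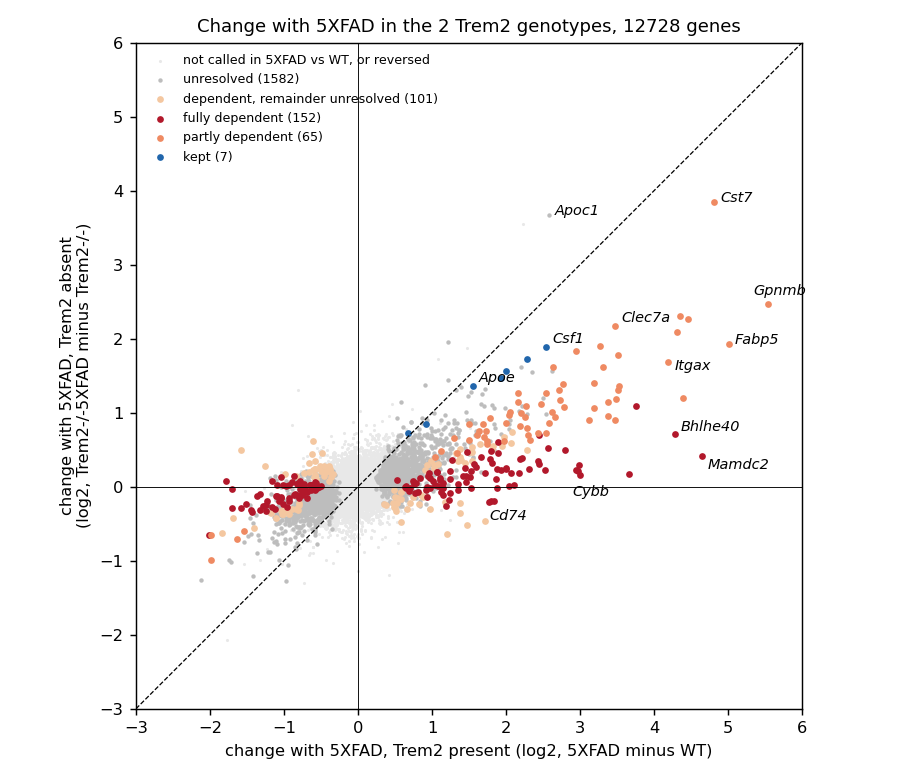
Log2 change in mice with Trem2 (5XFAD minus WT, x axis) against log2 change in mice without Trem2 (Trem2-/-5XFAD minus Trem2-/-, y axis), with 1 point per tested gene coloured by its class and a dashed line where both changes are equal. Most strongly raised genes lie between the dashed line and 0 on the y axis, with Mamdc2 near 0.41 and Cst7 at 3.84 without Trem2.

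For each of the 1909 genes, the share retained was the change without Trem2 as a percentage of the change with Trem2, with a 95% Fieller interval. A gene was called fully dependent where the interaction was called against the 5XFAD change, the change without Trem2 was not called, and its 95% interval lay within 0.5 times the 5XFAD change on either side of 0. This bounds what remained and does not show that it was 0. Fully dependent genes numbered 152 (7.96% of 1909), 86 that rose and 66 that fell, with a median share retained of 8.78%. Their shares retained ran from -22.1% to 32.1%. Their retained intervals held 0 for 132 genes and lay above 0 for 19. Partly dependent genes, where both changes and the interaction were called, numbered 65, of which 61 rose and 4 fell. Their median share retained was 43.0%, with a range from 26.1% to 79.9%. The ranges of the fully and partly dependent genes overlap, since a called change without Trem2 separates these classes. A further 101 genes had a called interaction, but the interval for what remained reached beyond 0.5 times the 5XFAD change on at least 1 side of 0. For 60 of them the share retained was under 0, and the median over the 101 was -18.0%. The fully and partly dependent numbered 79 and 29 with the markers of other brain cells as a covariate, 101 and 43 with Xist as a covariate, 98 and 39 without the arrays Trem2-/- 1 and Trem2-/-5XFAD 1, and 27 and 7 among the 12 low-Xist arrays, and 38 were partly dependent without Trem2-/- 2 alone.

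Together these 318 genes make up 16.7% of those changed in 5XFAD. Kept genes, called in both settings with an interaction that was not called and whose 95% interval lay within 0.5 times the 5XFAD change, numbered 7. For 1582 genes the data did not decide, and for 411 of them the retained interval held both 0% and 100%. None was called larger without Trem2, and 2 reversed.

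The strongest genes were mostly dependent by these rules. Of the 89 genes that moved by more than 2 log2 units in 5XFAD, 87 rose. By class, 23 of the 89 were fully dependent, 46 partly dependent, 3 dependent with an unresolved remainder, 3 kept and 14 unresolved, and their median share retained was 38.5%. Small changes could seldom be classed, since the median standard error of the interaction was 0.20.

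Several of the largest interactions belonged to genes that 5XFAD raised from a low level and that stayed there without Trem2. Mamdc2, which encodes a secreted matrix proteoglycan, had log2 values of 3.47, 3.37, 3.67 and 3.58 in WT and 8.64, 8.36, 7.42, 8.44 and 7.97 in 5XFAD. Without Trem2 it was at 3.37, 3.16, 3.70 and 3.62 in Trem2-/- and ran from 3.16 to 4.38, with a median of 3.91, in the 6 Trem2-/-5XFAD arrays. The 5XFAD arrays stood apart from all others, while the Trem2-/- and Trem2-/-5XFAD arrays overlapped. Its change was 4.64 ± 0.23 (SE) with Trem2 and 0.41 ± 0.22 without (limma adjusted p = 0.41), the interaction was -4.23 ± 0.32 (adjusted p = 7.1e-08), and 8.88% was retained (95% interval -0.997% to 18.9%).

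In WT it was weaker than the 40th percentile, which was between 4.16 and 4.34 depending on the array, so the fold of 25 understates the rise. The same holds for Atp6v0d2, Dcstamp, Flt1, Gpnmb, Hpse and Egln3, whose mean levels in WT and in Trem2-/- both lay below that range. For these genes a change that ends above that range is a lower limit, and the share retained carries an uncertainty beyond its interval. Atp6v0d2, a vacuolar ATPase subunit of phagocytes and osteoclasts, had values of 3.17, 3.24, 3.21 and 3.16 in WT and of 7.38, 6.49, 6.49, 6.82 and 7.14 in 5XFAD. It stayed at 3.21, 3.35, 3.48 and 3.26 in Trem2-/- and between 3.08 and 4.03 (median 3.39) in Trem2-/-5XFAD, so the groups without Trem2 overlapped. The interaction was -3.50 ± 0.25 (limma adjusted p = 6.2e-08), with 4.59% retained. Dcstamp, which drives fusion of osteoclasts and macrophages, changed by 2.99 with Trem2 and 0.30 without.

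Bhlhe40, a transcription factor of the clock and of macrophage lipid metabolism, was at 5.45, 3.89, 3.72 and 3.71 in WT and at 9.04, 8.27, 8.13, 8.72 and 8.19 in 5XFAD. In Trem2-/- it was at 4.24, 3.80, 4.13 and 3.86, and in Trem2-/-5XFAD it ran from 4.44 to 4.98 with a median of 4.74. The 6 Trem2-/-5XFAD arrays all lay above the 4 Trem2-/- arrays, although that change of 0.71 was not called (limma adjusted p = 0.18). Its interaction was -3.57 ± 0.37 (adjusted p = 7.3e-06) and 16.6% was retained (3.98% to 29.8%), an interval above 0. Apart from the WT array at 5.45, its baselines lay within or below the 40th percentile range given above. Both changes and the share retained are therefore approximate.

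Cybb, the catalytic subunit of the phagocyte NADPH oxidase, was at 5.68, 6.67, 5.52 and 6.26 in WT, 9.02, 8.82, 8.88, 9.46 and 9.0 in 5XFAD and 6.72, 6.76, 6.35 and 6.20 in Trem2-/-. Its Trem2-/-5XFAD values ran from 6.30 to 7.18 with a median of 6.67, within reach of the Trem2-/- arrays and below every 5XFAD array. The change was 3.0 with Trem2 and 0.16 without, and the interaction -2.84 ± 0.29 (limma adjusted p = 6.5e-06). Dkk2, a secreted modulator of Wnt signalling, changed by 2.97 with Trem2 and 0.21 without, from baselines near the 40th percentile. Flt1, a VEGF receptor, changed by 2.95 and 0.23. Flt1 is also on the list of vascular cell markers, of which 6 were tested, with 1 called higher (Flt1) and 1 lower (Pecam1) in 5XFAD. The mean of 11 such markers was 4.05 to 4.39 in WT, 4.02 to 4.28 in Trem2-/-, 4.17 to 4.37 in 5XFAD and 4.08 to 4.31 in Trem2-/-5XFAD. Interactions for Mamdc2, Bhlhe40, Atp6v0d2, Dkk2, Flt1 and Dcstamp were also called among the 12 arrays with low Xist, whereas that of Cybb was -1.91 there with an adjusted p of 0.059.

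**Figure D2:**
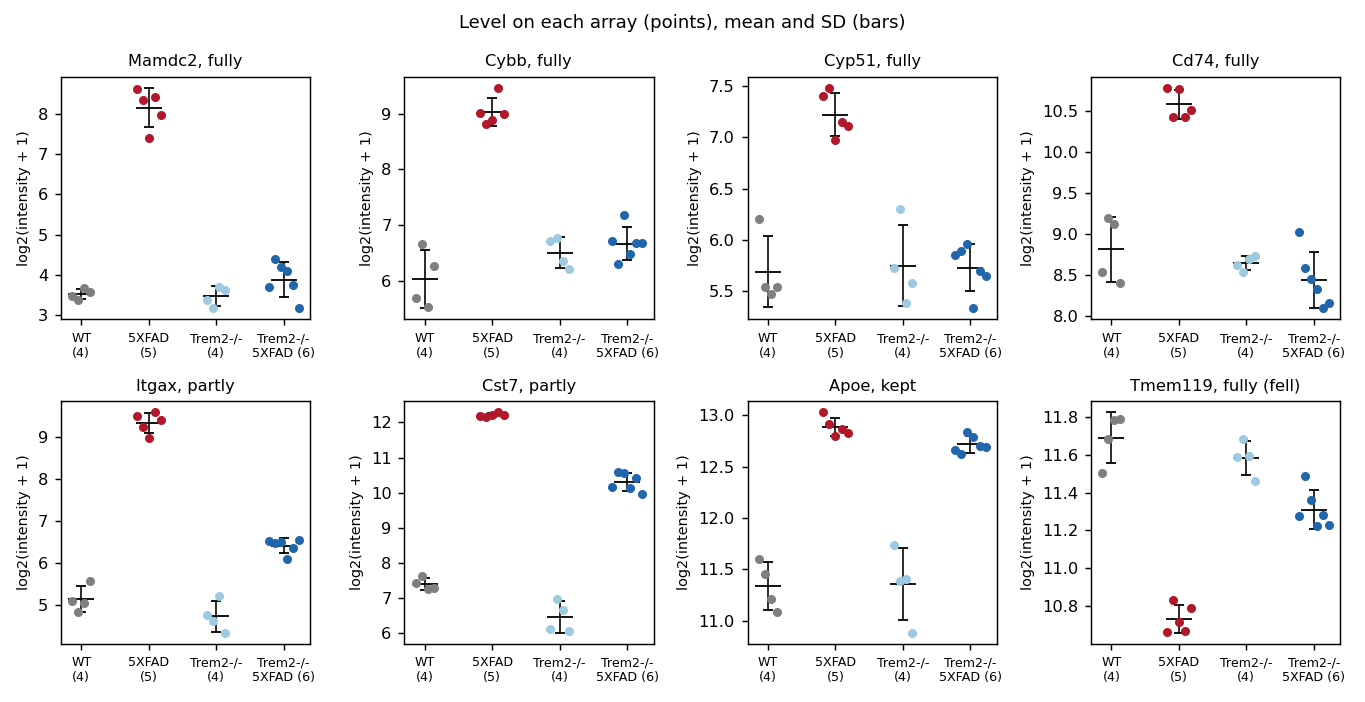
Log2 intensity on each of the 19 arrays, 1 point per array, for Mamdc2, Cybb, Cyp51, Cd74, Itgax, Cst7, Apoe and Tmem119 in the 4 groups, with the group mean and SD. Mamdc2, Cybb, Cyp51 and Cd74 are high in 5XFAD and not in Trem2-/-5XFAD, Itgax and Cst7 are between, and Apoe overlaps between 5XFAD and Trem2-/-5XFAD.

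Of the cholesterol synthesis and uptake list, 11 genes rose in 5XFAD with Trem2 and 0 were called without it. SREBP2 is the transcription factor that raises these enzymes when membrane sterol is low. The list held 21 tested genes, of which 0 fell in 5XFAD and 9 had a called negative interaction. Over all tested genes, 8.23% rose in 5XFAD, 2.18% were called without Trem2 and 2.60% in the interaction. The 0 of 21 called without Trem2 is near the 2.18%. Counts of this and the later lists stand beside these shares. The median change over the list was 0.63 with Trem2 and 0.02 without, and that of the interaction -0.78, beside 0.03 over all tested genes. Among the 11 called, 6 were fully dependent, 3 dependent with an unresolved remainder and 2 unresolved. The retained shares ran from -23.6% to 25.9%.

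Cyp51, the lanosterol demethylase, was at 6.20, 5.54, 5.47 and 5.54 in WT and 7.40, 7.48, 6.98, 7.14 and 7.11 in 5XFAD. It was at 5.73, 6.30, 5.38 and 5.58 in Trem2-/- and between 5.33 and 5.96 (median 5.77) in Trem2-/-5XFAD. Those last 2 groups overlapped, and both lay below every 5XFAD array. The change was 1.53 ± 0.18 with Trem2 and -0.02 ± 0.18 without, with an interaction of -1.55 ± 0.25 (limma adjusted p = 0.0011) and -1.23% retained (-25.9% to 23.3%). Srebf2, the gene of SREBP2, was at 6.41, 6.41, 6.38 and 6.41 in WT, 7.58, 7.38, 7.37, 7.73 and 7.61 in 5XFAD, 6.77, 6.56, 6.24 and 6.14 in Trem2-/- and 6.27 to 6.48 (median 6.47) in Trem2-/-5XFAD. Its interaction was -1.15 ± 0.17 (adjusted p = 0.00034), and the 5XFAD arrays again stood alone.

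The other members with called interactions moved alike. Named after their values were seen, these were Insig1, which holds SREBP2 back when sterol is plentiful (1.23 with Trem2, -0.17 without), the sterol carrier Stard4 (1.15 and 0.05), and the pathway enzymes Fdps (1.05 and 0.02), Hmgcs1 (0.94 and -0.01), Pmvk (1.03 and 0.25) and Msmo1 (1.18 and -0.21). Sqle, squalene epoxidase, changed by 1.35 and 0.35, but its interaction of -1.0 was not called when any of 14 single arrays was left out (highest limma adjusted p = 0.091). The number of members with a called interaction was 5 without arrays WT 1, WT 2, 5XFAD 1 and 5XFAD 2, 5 without Trem2-/- 1 and Trem2-/-5XFAD 1, and 0 among the 12 low-Xist arrays, where the median interaction was -0.61.

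The promoter of Hmgcs1, one of the pathway enzymes, is shown because it is the member of this list whose window holds a sterol element. It lies at chr13:119690101-119690400 (RefSeq, GRCm38.p6, plus strand, 250 bases before to 50 after the start), and the capitals mark the match to TCACNCCAC, which begins 137 bases before the start.
Hmgcs1: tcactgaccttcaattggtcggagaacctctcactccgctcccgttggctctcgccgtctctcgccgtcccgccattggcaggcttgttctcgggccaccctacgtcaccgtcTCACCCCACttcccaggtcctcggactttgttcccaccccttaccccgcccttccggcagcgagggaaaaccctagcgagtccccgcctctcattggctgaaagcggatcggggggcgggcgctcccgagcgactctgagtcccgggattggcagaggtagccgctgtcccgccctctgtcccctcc
Searched on both strands, TCACNCCAC was in 1 of the 17 list members with a promoter entry (5.88%), beside 1.39% of the 10142 tested genes with an entry. The E-box CACGTG was in 5 of the 17 (29.4%), beside 11.5%. A match describes letters in the window and not a binding site.

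Of 11 tested genes of MHC class II presentation, 5 rose and 1 fell in 5XFAD, 0 were called without Trem2, and 4 had a called negative interaction. Over all tested genes 2.18% were called without Trem2, and 0 of 11 is near that share. The list medians were 0.31 with Trem2, -0.13 without, and -0.44 for the interaction. Cd74, the invariant chain that guides class II molecules, was at 8.54, 9.19, 9.12 and 8.41 in WT, 10.78, 10.43, 10.77, 10.43 and 10.52 in 5XFAD, 8.62, 8.53, 8.69 and 8.73 in Trem2-/- and 8.09 to 9.02 (median 8.39) in Trem2-/-5XFAD. Every 5XFAD array lay above every other array. The change was 1.77 with Trem2 and -0.20 without (limma adjusted p = 0.65), the interaction -1.98 ± 0.25 (adjusted p = 6.2e-05), and -11.4% was retained (-32.7% to 8.79%).

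The class II chains H2-Aa (1.71 with Trem2, -0.46 without), H2-Ab1 (1.84 and -0.19) and H2-Eb1 (1.48 and -0.52) had interactions of -2.17, -2.02 and -2.0, with limma adjusted p-values of 0.0026, 0.0041 and 0.0038. Like Trem2, they lie on chromosome 17, and since they share sequence a probe set may read several of them. Array Trem2-/-5XFAD 1, which had the highest neutrophil markers, had the highest H2-Aa of its group, at 9.0 against 7.54 to 7.94 on the other 5. All 4 called interactions of the list were also called without that array and Trem2-/- 1, and 0 were called among the low-Xist arrays, where the list median was -0.20. In the MHC class I list, 5 of 15 rose in 5XFAD, beside 8.23% of all tested genes. In that list 0 were called without Trem2 and 0 in the interaction, near the 2.18% and 2.60% of all tested genes. All 5 that rose were unresolved, with a median of 36.7% retained, and the interactions of Psmb8, Psme2 and H2-M3 were -0.51, -0.46 and -0.43. The class I and class II lists were not tested against each other.

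Cytokines, chemokines and clock genes held further fully dependent members. Il12b, a cytokine subunit, was at 4.35, 4.59, 4.49 and 4.56 in WT and at 7.36, 7.24, 6.48, 6.65 and 7.01 in 5XFAD. It was at 4.53, 5.23, 4.87 and 4.66 in Trem2-/- and between 4.64 and 5.38 (median 5.24) in Trem2-/-5XFAD, which overlapped. The change was 2.45 with Trem2 and 0.31 without, with an interaction of -2.14 ± 0.26 (limma adjusted p = 3.6e-05). The chemokine Cxcl14 changed by 1.71 and 0.18, and the nuclear receptor Nr4a3 by 1.80 and -0.19. The clock and cytokine regulator Nfil3 changed by 1.88 and -0.02, and its Trem2-/- arrays at 7.55, 7.22, 7.13 and 6.24 reached above the WT arrays at 6.45, 6.56, 6.36 and 6.32.

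Some of these genes were already raised without the transgenes. Nlrp3, the sensor of the inflammasome, was at 9.68, 9.87, 9.27 and 9.24 in WT, 10.21, 10.23, 10.34, 10.37 and 10.23 in 5XFAD, 10.41, 10.18, 10.40 and 10.13 in Trem2-/- and 9.88 to 10.34 (median 10.26) in Trem2-/-5XFAD. Only the WT arrays stood apart, and Trem2-/- exceeded WT by 0.77 (limma adjusted p = 0.0094). Its interaction of -0.84 (adjusted p = 0.010) therefore compares a rise with Trem2 against a level already high in Trem2-/-. Among the low-Xist arrays the interaction of Nlrp3 was -0.36. Of the 152 fully dependent genes, 5 differed between Trem2-/- and WT (C5ar2, Enpp5, Fam71a, Gch1 and Nlrp3).

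Cxcl2, a neutrophil-attracting chemokine, changed by 2.30 with Trem2 and 0.24 without. Its WT arrays were at 8.87, 9.89, 8.21 and 7.46 and its Trem2-/- arrays at 9.85, 9.83, 9.58 and 8.62. The mean was higher in Trem2-/- than in WT, but the arrays overlapped and this difference was not called. The interaction was -2.07 ± 0.44 (limma adjusted p = 0.012) but 0.025 among the 12 low-Xist arrays (adjusted p = 0.99). Over the lists, 4 of 22 tested cytokine and inflammasome genes and 3 of 20 chemokines had a called interaction, all negative. The cytokine list had 10 genes higher in 5XFAD and 3 higher without Trem2, and the chemokine list 6 higher and 5 lower in 5XFAD and 3 higher without Trem2.

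The disease-associated list held fully dependent, partly dependent and kept members. Of 44 tested genes, 36 rose and 0 fell in 5XFAD, 27 rose and 0 fell without Trem2, and 20 had a called interaction, all negative. The median change was 1.54 with Trem2 and 0.69 without, and -0.67 for the interaction. The 36 genes held 6 fully dependent (Mamdc2, Bhlhe40, Atp6v0d2, Cybb, Dkk2 and Ch25h), 14 partly dependent, 5 kept and 11 unresolved members. This list came from published work on such microglia and was taken up with results of these data known, so its direction is not independent evidence. Their retained shares had a median of 51.9%, with 7 under 30%, 16 from 30% to 70% and 13 at 70% or over. The number with a called interaction ran from 19 to 22 under the other settings at an adjusted p under 0.05, was 17 at an adjusted p under 0.01, and was 8 among the low-Xist arrays.

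**Figure D3:**
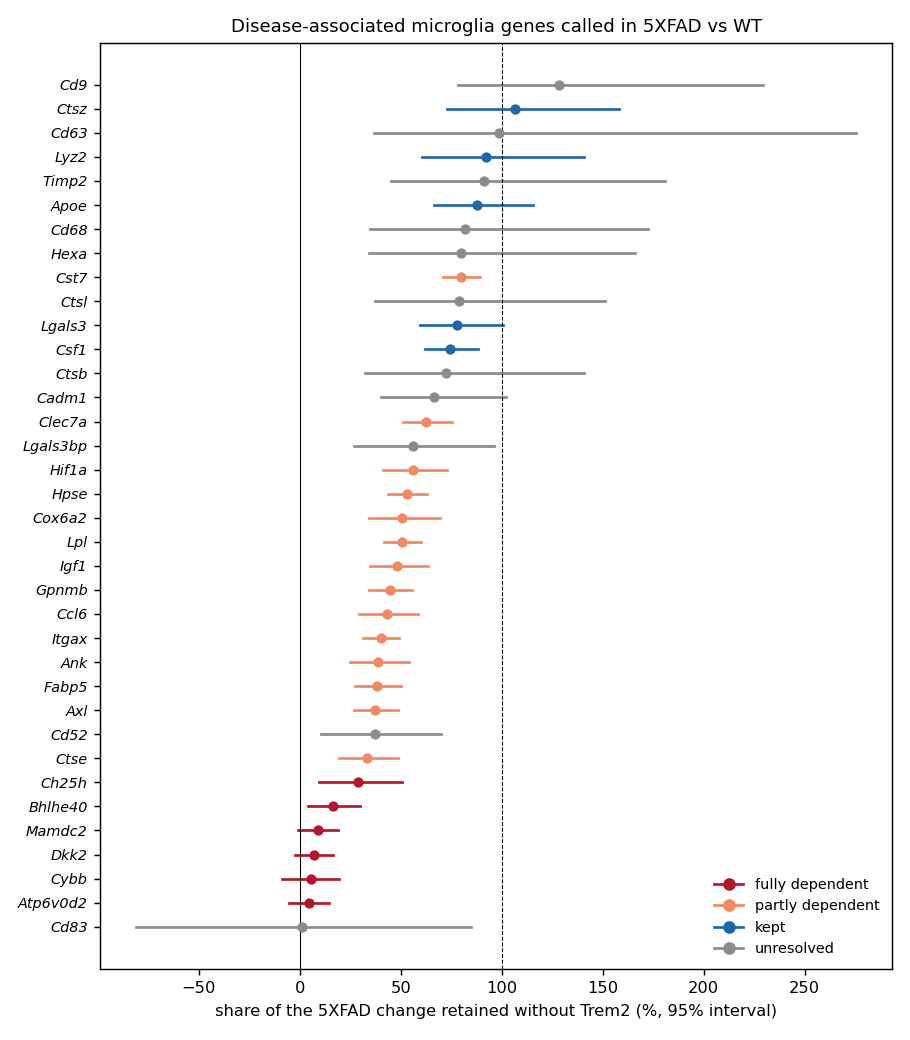
Share of the 5XFAD change retained without Trem2, in percent, for the 36 genes of the disease-associated list called in 5XFAD, with 95% Fieller intervals and colours for the class; lines mark 0% and 100%. Shares run from 1.09% to 128.5%, and intervals widen for genes with small changes such as Cd63 and Ctsz.

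Lipid uptake and storage genes were among the partly dependent. Gpnmb, a lysosomal glycoprotein of lipid-laden macrophages, was at 4.12, 3.57, 3.51 and 4.21 in WT, 9.58, 8.79, 9.24, 9.74 and 9.61 in 5XFAD, 3.55, 3.62, 4.60 and 3.79 in Trem2-/- and 5.78 to 6.97 (median 6.43) in Trem2-/-5XFAD. The last group lay above every Trem2-/- array and below every 5XFAD array. It changed by 5.54 with Trem2 and 2.47 without, with an interaction of -3.07 ± 0.36 (limma adjusted p = 3.3e-05). Since both baselines lay below the 40th percentile, these are lower limits, and the measured share retained of 44.6% (34.5% to 55.5%) is approximate. Fabp5, a fatty acid carrier, was at 4.19, 6.16, 5.00 and 4.77 in WT, 10.19, 9.89, 10.36, 9.96 and 9.83 in 5XFAD, 5.59, 5.70, 6.0 and 5.79 in Trem2-/- and 7.14 to 8.05 (median 7.75) in Trem2-/-5XFAD.

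Fabp5 therefore took the same middle place, with 38.4% retained (27.4% to 50.3%). Lpl, lipoprotein lipase, changed by 4.47 and 2.26, with 50.7% retained (41.8% to 60.3%), and its groups did not overlap in any of the pairs compared. Acaca, the first enzyme of fatty acid synthesis, changed by 2.58 and 0.87. Of 22 tested genes of fatty acid uptake and storage, 9 rose and 1 fell in 5XFAD, 4 rose and 1 fell without Trem2, and 6 had a called negative interaction: Fabp3 and Hilpda were fully dependent, and Fabp5, Lpl, Acaca and Plin2, the lipid droplet coat protein, partly.

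Itgax (CD11c), an integrin subunit, was at 5.10, 4.85, 5.06 and 5.58 in WT, 9.50, 9.24, 8.98, 9.58 and 9.40 in 5XFAD, 4.78, 4.62, 5.21 and 4.35 in Trem2-/- and 6.09 to 6.55 (median 6.49) in Trem2-/-5XFAD. It rose 18.3-fold with Trem2 and 3.20-fold without, on the log2(intensity + 1) scale, and the interaction was -2.51 ± 0.24 (limma adjusted p = 1.6e-06) with 40% retained (31.5% to 49.2%). The Trem2-/-5XFAD arrays overlapped neither with Trem2-/- nor with 5XFAD. Axl, a receptor for phosphatidylserine-bridging ligands, retained 37.4%, and Clec7a (dectin-1), a glucan receptor, retained 62.6% (51.4% to 75.2%).

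Igf1, a growth factor, was at 5.78, 5.14, 4.98 and 4.21 in WT, 9.57, 9.45, 9.02, 9.58 and 9.10 in 5XFAD, 5.02, 4.36, 5.38 and 4.84 in Trem2-/- and 6.46 to 7.53 (median 7.09) in Trem2-/-5XFAD. Its retained share was 48.3% (35.0% to 63.4%). Hpse, heparanase, which cuts heparan sulfate, had a measured share of 53.0%, likewise from baselines below the 40th percentile. In the list of trophic, matrix and vascular factors, 15 of 23 tested genes rose and 1 fell in 5XFAD, 6 rose without Trem2, and 5 had a called negative interaction: Mamdc2, Dkk2 and Flt1 fully dependent and Igf1 and Hpse partly. The list thus held both lost and reduced members.

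Of 23 glycolysis and glucose transport genes, 11 rose and 2 fell in 5XFAD and 5 rose without Trem2, with 4 negative and 1 positive called interactions. Slc2a1, the glucose transporter GLUT1, was at 9.28, 9.61, 8.92 and 8.73 in WT, 10.54, 10.68, 10.68, 10.68 and 10.49 in 5XFAD, 9.27, 9.09, 9.26 and 9.29 in Trem2-/- and 9.57 to 9.85 (median 9.69) in Trem2-/-5XFAD. All 6 Trem2-/-5XFAD arrays exceeded the Trem2-/- arrays, yet that change of 0.47 was not called (limma adjusted p = 0.057). By the rule this placed Slc2a1 among the fully dependent genes, although 31.7% was retained (13.6% to 52.2%), an interval above 0. The enzyme Tpi1 changed by 1.34 and 0.46, both called, with 34.4% retained.

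Of 21 hypoxia targets, 10 rose in 5XFAD and 2 without Trem2, with 5 negative called interactions. Egln3, an oxygen-sensing hydroxylase, had a measured share of 27.3% from baselines below the 40th percentile, and its Trem2-/-5XFAD arrays included one, number 2, at 6.42 against 4.24 to 4.87 on the other 5. Hif1a, the oxygen-regulated transcription factor, changed by 1.5 and 0.84 and retained 56.0%. Of 44 oxidative phosphorylation genes, 17 rose in 5XFAD and 1, Ndufa1, rose without Trem2 (1.30 and 0.90). A single interaction of that list was called, Cox7b (0.65 and -0.02), and it was lost without any of 13 single arrays (highest limma adjusted p = 0.095). The list median was 0.29 with Trem2 and 0.12 without, so most of its members remained unresolved.

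**Figure D4:**
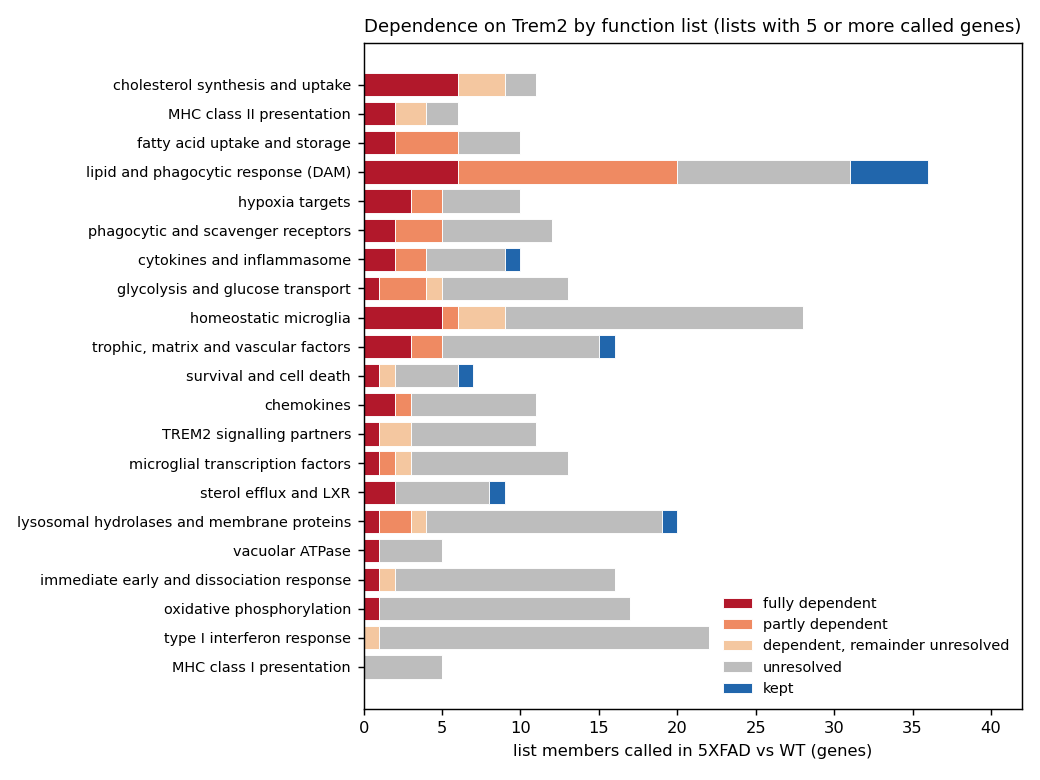
Number of genes of each function list in each dependence class, stacked, for the 21 lists with at least 5 genes called in 5XFAD; a gene may be in more than 1 list. Cholesterol synthesis holds 6 fully dependent genes of 11, the disease-associated list 14 partly dependent of 36, and most interferon and oxidative phosphorylation genes are unresolved.

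Of 34 homeostatic genes tested, 28 fell and 0 rose in 5XFAD, and 3 fell without Trem2. A positive interaction, a smaller fall without Trem2, was called for 9 of them, and 19 of the 28 were unresolved. The list median was -0.51 with Trem2, -0.17 without, and 0.31 for the interaction. Tmem119, a microglial membrane protein, was at 11.51, 11.69, 11.79 and 11.79 in WT, 10.66, 10.83, 10.72, 10.67 and 10.79 in 5XFAD, 11.59, 11.68, 11.59 and 11.46 in Trem2-/- and 11.23 to 11.49 (median 11.28) in Trem2-/-5XFAD. All 6 Trem2-/-5XFAD arrays lay above all 5XFAD arrays. The change was -0.96 with Trem2 and -0.27 without (limma adjusted p = 0.12), the interaction 0.69 ± 0.13 (adjusted p = 0.0039), and 28.4% was retained (9.07% to 50.1%), an interval above 0.

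Bank1, a scaffold protein of immune receptor signalling, was at 8.53, 8.07, 8.62 and 8.51 in WT, 6.56, 6.74, 5.94, 6.16 and 6.67 in 5XFAD, 8.58, 8.06, 7.96 and 8.40 in Trem2-/- and 7.33 to 8.01 (median 7.59) in Trem2-/-5XFAD. It retained 32.1% (14% to 52.4%). Crybb1, a crystallin made by mature microglia, fell in both settings, by 1.55 and by 0.60 on the log2 scale. P2ry12, the ADP receptor that guides process movement, changed by -0.80 and -0.22, and its interaction of 0.58 (limma adjusted p = 0.040) was lost without any of 14 single arrays, with a highest adjusted p of 0.086.

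Outside that list, Serpinf1, which encodes pigment epithelium-derived factor, was at 8.21, 8.44, 8.20 and 8.27 in WT, 5.95, 6.53, 6.17, 6.40 and 6.45 in 5XFAD, 8.24, 8.11, 8.36 and 8.17 in Trem2-/- and 7.12 to 7.41 (median 7.20) in Trem2-/-5XFAD. Its fall was partly retained, at 50.1% (37.7% to 64.1%), with the Trem2-/-5XFAD arrays apart from both other groups. Only 4 falling genes were partly dependent, against 61 rising ones: Serpinf1, Pecam1, Crybb1 and the lectin Clec4a2. The class needs a called change without Trem2, and 207 genes were called higher there against 71 lower. Of the 89 changes over 2 log2 units in 5XFAD, 87 rose. The split therefore cannot be read as a difference in how falls and rises depend on Trem2. Bank1 missed the class narrowly, with a limma adjusted p of 0.053 for its change without Trem2, and is therefore counted as fully dependent. The number of homeostatic genes with a called interaction ran from 7 to 16 under the other settings at an adjusted p under 0.05, and was 0 among the low-Xist arrays, where the list median was 0.33.

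In the TREM2 signalling list, 4 of 26 tested genes rose and 7 fell in 5XFAD, 2 rose without Trem2, and 3 had a called interaction, beside 2.60% of all tested genes. Tyrobp, the adaptor of TREM2, changed by 0.23 with Trem2 and 0.11 without, neither called. Cd33, an inhibitory sialic-acid receptor, changed by -0.56 and 0.05, with an interaction of 0.61 that was lost without any of 15 single arrays (highest limma adjusted p = 0.10). Fgr, a Src-family kinase, changed by 1.98 and 0.67, with an interaction of -1.30 that was lost without WT 3 or without WT 4 (highest limma adjusted p = 0.055). Pik3cg, a catalytic subunit of a phosphoinositide kinase, changed by -0.36 and 0.19. Its interaction of 0.55 held without each of the 19 arrays (highest adjusted p = 0.046) but not after median centring or with the replicate block.

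**Figure D5:**
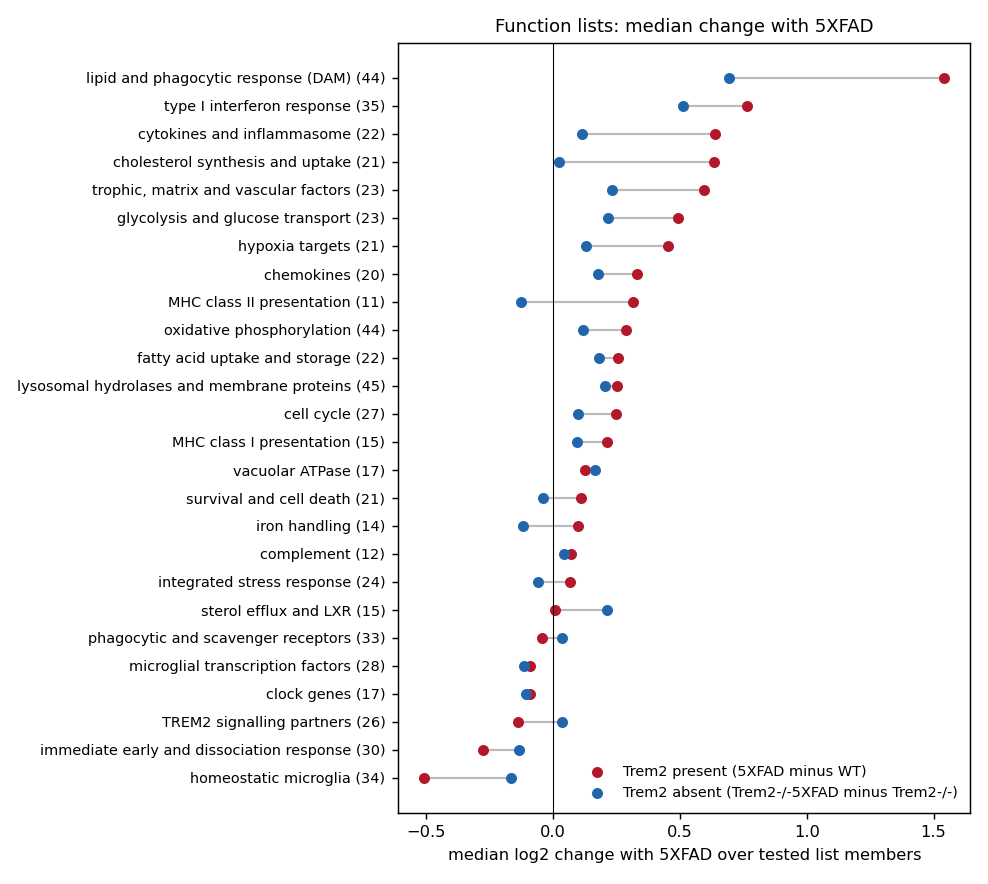
Median log2 change of the tested genes of each of the 26 function lists with Trem2 (5XFAD minus WT) and without Trem2 (Trem2-/-5XFAD minus Trem2-/-). The disease-associated list falls from 1.54 to 0.69, cholesterol synthesis from 0.63 to 0.02, interferon from 0.76 to 0.51, and the lysosomal list from 0.25 to 0.21. The medians include members that were not called in 5XFAD.

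The 7 kept genes included Apoe, the main apolipoprotein of the brain. Apoe was at 11.60, 11.46, 11.21 and 11.09 in WT, 13.03, 12.91, 12.80, 12.86 and 12.83 in 5XFAD, 11.74, 11.39, 11.41 and 10.88 in Trem2-/- and 12.63 to 12.84 (median 12.69) in Trem2-/-5XFAD. The 2 groups with transgenes overlapped, and both lay above those without. The change was 1.55 ± 0.14 with Trem2 and 1.36 ± 0.13 without (limma adjusted p = 1.5e-06). The interaction was -0.19 ± 0.19 (adjusted p = 0.73), with a 95% interval from -0.58 to 0.21, and 88.0% was retained (66.6% to 115%).

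Lgals3 (galectin-3), a sugar-binding protein of activated microglia, changed by 2.0 and 1.56, the carboxypeptidase Cpd by 1.94 and 1.48, and the sulfotransferase Chst2 by 2.28 and 1.73. Lysozyme, Lyz2, retained 92.5% and the cathepsin Ctsz 106%. The kept class rests on an interval and not on a test of equality, and without single arrays it held 4 to 9 genes, with 4 when array WT 2 was left out.

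A kept change did not always mean a kept level. Csf1, a ligand of the receptor on which microglia depend, was at 7.90, 8.09, 7.94 and 7.72 in WT, 10.43, 10.54, 10.23, 10.61 and 10.46 in 5XFAD, 6.85, 7.28, 7.18 and 6.57 in Trem2-/- and 8.72 to 9.08 (median 8.84) in Trem2-/-5XFAD. All 4 groups were apart from each other. Trem2-/- was below WT by a log2 difference of -0.94 (limma adjusted p = 0.0018), and from that lower start 74.3% of the change was retained (61.9% to 88.4%), with an interaction of -0.65 (adjusted p = 0.061). The interval excluded 100%, and Csf1 is in the kept class by a narrow margin: its interaction was called without WT 2, without Trem2-/- 4 or without 5XFAD 3 (lowest limma adjusted p = 0.013), and with a pseudocount of 16, the 60th percentile filter, the mean-variance trend or array weights.

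Cst7, the cysteine protease inhibitor cystatin F, was at 7.42, 7.65, 7.25 and 7.28 in WT, 12.19, 12.15, 12.22, 12.28 and 12.21 in 5XFAD, 6.13, 6.99, 6.67 and 6.06 in Trem2-/- and 9.95 to 10.61 (median 10.29) in Trem2-/-5XFAD. Its groups were likewise all apart, with Trem2-/- below WT by a difference of -0.94. The rise was 28.1-fold with Trem2 and 14.4-fold without, so 79.9% of the log2 change was retained (71.2% to 89.5%). Its interaction of -0.97 ± 0.23 (limma adjusted p = 0.029) was lost without WT 3, WT 4, Trem2-/- 2, Trem2-/- 3, 5XFAD 4 or Trem2-/-5XFAD 4, each left out alone, with a highest adjusted p of 0.070.

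Interferon response genes rose in 5XFAD and were mostly unresolved as to dependence. Of 35 tested, 21 rose and 1 fell in 5XFAD, 7 rose without Trem2, and 1 interaction was called. The list median was 0.76 with Trem2 and 0.51 without, with a median share retained of 60.2% among the 22 called, of which the single dependent member was Lgals9, which fell. Its call was lost without WT 4 or without Trem2-/- 3 (highest limma adjusted p = 0.059). Oasl2, an oligoadenylate synthetase-like antiviral protein, was at 4.61, 4.85, 5.10 and 5.29 in WT, 7.63, 7.29, 6.56, 7.04 and 7.13 in 5XFAD, 4.73, 5.51, 4.86 and 4.57 in Trem2-/- and 5.35 to 6.52 (median 5.94) in Trem2-/-5XFAD. It retained 47.0% (24.7% to 74.4%), with an interaction of -1.15 ± 0.33 (limma adjusted p = 0.065).

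Rsad2 (viperin), chosen after its values were seen, was at 4.43, 4.18, 4.33 and 4.72 in WT, 5.78, 5.07, 4.81, 5.54 and 5.43 in 5XFAD, 4.06, 4.22, 4.12 and 4.29 in Trem2-/- and 4.71 to 5.50 in Trem2-/-5XFAD. It changed by 0.91 and 0.92 and retained 100% (55.6% to 184%). Most of its WT and Trem2-/- values lay near the 40th percentile of the arrays (4.16 to 4.34), so both changes and the share are approximate. Its promoter is shown because it is an interferon gene that was called in both settings, although its wide interval left it unresolved. It lies at chr12:26456403-26456702 (RefSeq, GRCm38.p6, minus strand), and the capitals mark an interferon element (GAAA, any pair of bases, GAAA) read on the opposite strand, beginning 120 bases before the start.
Rsad2: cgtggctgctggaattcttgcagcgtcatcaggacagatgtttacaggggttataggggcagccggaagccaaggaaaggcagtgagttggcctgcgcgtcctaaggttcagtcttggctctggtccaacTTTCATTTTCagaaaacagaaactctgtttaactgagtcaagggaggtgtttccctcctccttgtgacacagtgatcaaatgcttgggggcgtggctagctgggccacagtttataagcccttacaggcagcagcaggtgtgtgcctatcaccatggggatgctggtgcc
The interferon element was in 15 of the 26 list members with a promoter entry (57.7%), beside 3.59% of all tested genes with an entry. Among fully dependent genes that rose it was in 6.45% of 62, and among partly dependent genes that rose in 2.08% of 48.

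Lysosomal genes were divided. Of 45 tested hydrolases and membrane proteins, 17 rose and 3 fell in 5XFAD, 9 rose without Trem2, and 4 had a called interaction: Gpnmb, Ctse and Gla negative and Sgsh positive. The list medians were 0.25 with Trem2, 0.21 without and 0.00 for the interaction. These medians include members not called in 5XFAD. Among the 20 called there, the median share retained was 49.1%, with 15 unresolved and 1 kept. Ctse (cathepsin E) changed by 3.19 and 1.07, with 33.4% retained, while Ctsd (cathepsin D) changed by 0.12 and 0.16, neither called. Sgsh, a heparan sulfatase, was at 6.57, 6.77, 6.69 and 6.30 in WT, 5.25, 5.95, 5.33, 5.63 and 5.68 in 5XFAD, 6.32, 5.98, 6.32 and 6.06 in Trem2-/- and 6.02 to 6.56 (median 6.15) in Trem2-/-5XFAD.

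The fall of Sgsh, -1.02 with Trem2 and 0.02 without, gave an interaction of 1.04 ± 0.20 (limma adjusted p = 0.0057), and the 5XFAD arrays lay below all others. Gaa, acid alpha-glucosidase, chosen after its values were seen, changed by 0.52 in both settings, with 99.8% retained (47.1% to 216%). The promoters of these hydrolases are set together because each holds the E-box CACGTG, in capitals, while their changes differed. Gaa lies at chr11:119267713-119268012 (plus strand, E-box beginning 140 bases before the start) and Sgsh at chr11:119355461-119355760 (minus strand, 29 bases before), from RefSeq, GRCm38.p6.
Gaa: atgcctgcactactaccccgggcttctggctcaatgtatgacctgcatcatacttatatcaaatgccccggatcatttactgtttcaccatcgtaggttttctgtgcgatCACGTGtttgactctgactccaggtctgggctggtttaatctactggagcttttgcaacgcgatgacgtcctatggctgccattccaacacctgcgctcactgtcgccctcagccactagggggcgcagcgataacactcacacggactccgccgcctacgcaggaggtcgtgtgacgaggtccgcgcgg
Sgsh: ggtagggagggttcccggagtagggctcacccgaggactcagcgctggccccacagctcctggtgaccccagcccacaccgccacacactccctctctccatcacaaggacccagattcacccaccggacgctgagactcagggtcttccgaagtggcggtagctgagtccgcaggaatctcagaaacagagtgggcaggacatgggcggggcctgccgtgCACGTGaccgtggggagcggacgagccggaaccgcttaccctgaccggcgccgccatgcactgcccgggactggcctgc
CACGTG was in 13 of the 39 lysosomal genes with an entry (33.3%), beside 11.5% of all. Of 17 vacuolar ATPase genes, 4 rose and 1 fell in 5XFAD, and Atp6v0d2 alone had a called interaction.

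Sterol efflux genes moved in several directions. Of 15 tested, 7 rose and 2 fell in 5XFAD, 4 rose without Trem2, and 3 had a called interaction. Apoc1, an apolipoprotein encoded beside Apoe, was at 4.20, 3.91, 4.26 and 4.01 in WT, 7.40, 7.14, 5.70, 6.26 and 6.88 in 5XFAD, 3.66, 4.33, 4.89 and 4.34 in Trem2-/- and 6.73 to 8.63 (median 8.17) in Trem2-/-5XFAD. The last group reached above 5XFAD but overlapped with it. The change was 2.58 with Trem2 and 3.67 without, and the interaction of 1.09 ± 0.48 was not called (limma adjusted p = 0.30), with 142% retained (103% to 206%). Most WT and Trem2-/- values of Apoc1 lay near or below the 40th percentile of the arrays (4.16 to 4.34). Both changes and the share retained are therefore approximate.

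Lpcat3, a phospholipid-remodelling enzyme and LXR target, changed by -0.86 and 0.14, with an interaction of 1.0 (limma adjusted p = 0.00083). Abca1, the cholesterol exporter, changed by -0.37 and 0.40, neither called, with an interaction of 0.78 ± 0.18 (adjusted p = 0.019). Ch25h, a hydroxylase of cholesterol, changed by 3.75 and 1.09 and retained 28.9%. Among the 1909 genes called in 5XFAD, 42 had a share retained of 100% or over, of which 31 rose, and none of these interactions was called.

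The 2 reversed genes were Enpp4 and Rcan3. Enpp4, an ectonucleotidase encoded on chromosome 17, was at 5.82, 6.31, 6.35 and 5.99 in WT, 5.82, 5.30, 5.29, 5.57 and 5.22 in 5XFAD, 4.90, 4.91, 4.72 and 5.09 in Trem2-/- and 5.27 to 5.95 (median 5.57) in Trem2-/-5XFAD. It fell from a high WT level and rose from a low Trem2-/- level, ending in overlapping ranges, with an interaction of 1.36 ± 0.21 (limma adjusted p = 0.00063). Rcan3, a calcineurin regulator, was at 7.17, 6.87, 7.17 and 7.10 in WT, 6.60, 6.75, 6.52, 6.74 and 6.72 in 5XFAD, 6.60, 6.64, 6.47 and 6.69 in Trem2-/- and 6.97 to 7.33 (median 7.09) in Trem2-/-5XFAD. It changed by -0.41 and 0.50, and its interaction was 0.91 ± 0.14.

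A further pair of genes, G530011O06Rik and Tmem176b, had called interactions and were called without Trem2 but not with it. G530011O06Rik averaged 11.13 in WT and 4.28 in Trem2-/-, a difference of -6.85 (limma adjusted p = 1.9e-12), so its change of 1.31 without Trem2 starts near the 40th percentile of the arrays. The change of G530011O06Rik with Trem2 was -0.81, which narrowly missed the threshold (limma adjusted p = 0.052). Tmem176b changed by 0.19 with Trem2 and -0.44 without, and its interaction was not called with the replicate block or without WT 1, WT 2, 5XFAD 1 and 5XFAD 2. In addition, 9 genes had a called interaction although neither change was called: 1700010I14Rik, Abca1, Lrrc1, Pabpc1l, Scx, Sfxn4, Slc9a3r1, Zfp626 and Zfpm1. In each of them the 2 changes were opposite and missed the threshold, and the call of Zfp626 was lost without any of 10 single arrays (highest limma adjusted p = 0.086).

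In the remaining lists the counts stand beside 2.60% of all tested genes with a called interaction. For the 5XFAD change the shares over all tested genes were 8.23% higher and 6.77% lower, and 2.18% were called without Trem2. No list was tested against these shares. Of 33 phagocytic and scavenger receptors, 8 rose and 4 fell in 5XFAD, 5 rose and 1 fell without Trem2, and 5 interactions were called, among them the lipoprotein receptor Scarb1 (1.44 and 0.25). Of 30 immediate early genes, which respond to cell dissociation, 5 rose and 11 fell in 5XFAD, 0 were called without Trem2, and 2 interactions were called, Nr4a3 and Klf2, that of Klf2 lost without any of 12 single arrays (highest limma adjusted p = 0.091). Cell cycle genes had 2 higher and 1 lower of 27 in 5XFAD and no call in the other comparisons (0 of 27). Integrated stress genes had 2 higher of 24 in 5XFAD and 0 called interactions, with Psat1, a serine synthesis enzyme, raised in both settings (1.71 and 1.32).

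Complement genes had 2 of 12 higher in 5XFAD, beside 8.23% of all tested genes, and Itgax was the single interaction called. Survival genes had 4 higher and 3 lower of 21 in 5XFAD and 2 called interactions. That of Bcl2, which blocks apoptosis, was lost without any of 10 single arrays (highest limma adjusted p = 0.080), and that of the protease Casp8 without WT 3, Trem2-/- 3 or Trem2-/- 4 (highest adjusted p = 0.064). Transcription factors of microglia had 5 higher and 8 lower of 28, with called interactions for Bhlhe40, Hif1a and Maf, that of Maf lost without any of 16 single arrays (highest limma adjusted p = 0.095). Clock genes had 2 higher and 2 lower of 17, with Bhlhe40, Nfil3 and Tef called, Tef not without WT 3, Trem2-/- 2 or Trem2-/- 3 (highest adjusted p = 0.059). Of 14 iron genes, 1 rose and 1 fell, and the iron exporter Slc40a1 (-1.68 and -0.42) had the single called interaction, lost without any of 12 single arrays (highest adjusted p = 0.080).

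Of the 81 genes named by the naming rule with a called interaction, 60 kept the call without each of the 19 arrays in turn, and 21 lost it without at least 1. The rule favours large interactions and small p-values, so these genes do not stand for the rest. Of all 331, the number still called without 1 array ran from 220 (without Trem2-/- 2) to 302 (without Trem2-/-5XFAD 2). Among the 12 low-Xist arrays, which hold 1 WT and 1 Trem2-/- array, fewer interactions were called, and 328 of the 331 kept their sign. The 331 were selected on data that include these arrays, so a kept sign is partly built in. Interaction sizes moved both ways among the low-Xist arrays. That of Nlrp3 went from -0.84 to -0.36, Cst7 from -0.97 to -0.32, Nfil3 from -1.90 to -1.01 and Slc2a1 from -1.01 to -0.61. That of Fabp5 went from -3.09 to -1.95, while Gpnmb went from -3.07 to -3.20 and Clec7a from -1.30 to -1.70. Lpl went from -2.20 to -2.29 and Tmem119 from 0.69 to 0.78. With Xist level as a covariate 307 were called, of which 289 were among the 331. Markers of other brain cells as a covariate gave 297, of which 291 were among the 331. Without WT 1, WT 2, 5XFAD 1 and 5XFAD 2, 360 were called, of which 214 were among the 331.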

How the data were processed

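Microglia from 4 genotype groups were measured on one-colour expression arrays. The authors deposited 1 table of linear intensity values for 24679 probe sets and 20 arrays; the labels' protocols describe the sorting, RNA extraction and labelling, and no source used here states the normalization. Platform annotation named 1 gene for 21354 probe sets, several for 1275 and none for 2050, and 21277 matched a gene of the GRCm38.p6 table. Where a gene had several probe sets (893 of 19751 genes), the probe set with the highest mean stood for it.

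Values were taken as log2(intensity + 1), which understates folds of weak genes. A gene was tested if it exceeded the 40th percentile in at least 4 arrays. Limma 3.58.1 in R 4.3.3 fitted the 4 group means over 19 arrays (15 residual degrees of freedom, two-sided tests), and p-values were adjusted by Benjamini-Hochberg over 12728 genes. The scripts were tested on simulated data. Nothing says how separate the samples are beyond being littermates, so p-values reflect the array-to-array spread, which may be technical, and the number of arrays limits the precision.

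The comparison and the 26 function and 11 marker lists were chosen with earlier results of these data known. Named genes were Trem2, the 10 lowest and 10 highest called interactions, per list the 3 with the smallest interaction p and the 2 with the largest 5XFAD change, per class the 5 largest rises and falls, and a fixed set of well-known microglial genes (Tyrobp, Apoe, Cst7 and the like). Alternatives concerned the pseudocount, filter, normalization, probe sets, variance prior, weights, covariates, left-out arrays, a replicate block and the threshold. Low-Xist arrays alone, and leaving out Trem2-/- 1 with Trem2-/-5XFAD 1, were added after seeing the data. Promoter windows are from RefSeq (GRCm38.p6), with an entry for 10142 of the tested genes.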

Additional observations from a re-analysis of the deposited data

Results flagged for a closer look

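The 5XFAD change differed between the Trem2 genotypes for 331 genes by limma's interaction test, as described above.

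Among 516 sets of values of the named genes (1 gene in 1 group), 32 held an array whose gap to its nearest neighbour exceeded Dixon's 95% critical value for the group size, which is 6.20% where chance gives about 5%. Array Trem2-/-5XFAD 2 held 7 of them. It was high for Egln3 (6.42 on the log2 scale, others 4.24 to 4.87), Clec4a2 (7.88), Casp8 (9.35) and Ephx1 (7.47), and low for Lgals9 (10.05), Cd33 (10.37) and Gadd45b (8.59, others 9.92 to 10.39). In the same group, Trem2-/-5XFAD 1 was low for Gpr165 (7.79) and high for H2-Aa (9.0), Trem2-/-5XFAD 4 was low for Psmb8 (8.60) and high for Sgsh (6.56), and Trem2-/-5XFAD 6 was low for Psme2 (7.95).

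In 5XFAD, array 3 was low for Pik3cg (8.35), Axl (8.46), Ramp1 (8.02) and Ephx1 (7.37). Array 2 was high for Clec4a3 (8.16) and low for Acaca (7.22), array 1 was high for Zbp1 (7.55), and array 5 was low for Chst2 (6.35).

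In WT, array 1 was high for Bhlhe40 (5.45, others 3.71 to 3.89), Cyp51 (6.20) and Lgals3 (6.52) and low for Cox5b (9.19). WT 3 was high for Plk1 (5.97), and WT 4 was low for Trem2 (11.14) and H2-Eb1 (7.21). In Trem2-/-, array 2 was low for Ch25h (3.28), Slc2a1 (9.09) and Upk1b (9.23), and array 3 was low for Dkk2 (3.89) and high for Abca1 (8.89).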

How the results depend on the processing

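In the settings run, the 331 called interactions kept their sign wherever tested (298 of them under the 60th percentile filter), except for 3 among the 12 low-Xist arrays, where the interaction of Cxcl2 was 0.025. The 331 were selected on arrays that these settings reuse, so a kept sign is close to given. Of the 331, 326 were also called with the mean of probe sets. Without WT 1, WT 2, 5XFAD 1 and 5XFAD 2 this held for 214, and without Trem2-/- 1 and Trem2-/-5XFAD 1 for 199. A further setting used the 12 low-Xist arrays alone. Those arrays gave 61 called interactions (25 higher, 36 lower), 856 calls for 5XFAD against WT, 123 for Trem2-/-5XFAD against Trem2-/- and 45 for Trem2-/- against WT, and 27 fully dependent, 7 partly dependent and 4 kept genes. They hold 1 WT and 1 Trem2-/- array, each assumed to vary like the other groups. At an adjusted p under 0.01 the same counts were 148 (44 and 104), 1148, 111, 20, 88 and 30. Median centring gave 78 higher interactions. Array weights gave 507 calls for Trem2-/-5XFAD against Trem2-/- and 48 for Trem2-/- against WT, and the neutrophil covariate 34 for the latter. With the markers of other brain cells as a covariate there were 1050, 66 and 13 calls in the 3 pairwise comparisons, 79 fully and 29 partly dependent genes; with Xist 167 calls without Trem2, 101 fully and 43 partly dependent. Without WT 1, WT 2, 5XFAD 1 and 5XFAD 2, 271 genes differed between Trem2-/- and WT. Without Trem2-/- 1 and Trem2-/-5XFAD 1 there were 208 interactions (70 higher), 146 calls without Trem2, 27 for Trem2-/- against WT, 98 fully and 39 partly dependent genes. The cause of these differences was not tested, beyond the fewer arrays and the stricter threshold of some settings.

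Leaving out single arrays gave 224 to 362 interactions (76 to 157 higher, 148 to 212 lower), 1639 to 1969 calls for 5XFAD, 158 to 308 without Trem2, 30 to 159 for Trem2-/- against WT, 105 to 157 fully dependent, 38 to 70 partly dependent and 4 to 9 kept genes.

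With the replicate number of the titles as a block, 234 interactions were called (215 of them among the 331), 78 higher and 156 lower, with 183 calls without Trem2 and 38 for Trem2-/- against WT. The numbers did not pair the arrays: deviations of 25 same-numbered pairs correlated at -0.10 to 0.17 (median 0.01), and 5 of 19 arrays correlated best with their own number.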

Other observations

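The array with conflicting labels, put in no group, had a Trem2 log2 intensity of 11.08 and an Xist value of 9.44.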
